A study of Mus musculus with 9 samples.

Results

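FGFR1OP-RET was set against 2 fusion kinases whose partner protein is BCR, namely BCR-RET and BCR-ABL, in BaF3 cells on 3 arrays for each fusion. Genes were kept where FGFR1OP-RET differed from the mean of the BCR-RET and BCR-ABL group means, both weighted equally, and where its own mean lay above both or below both of these groups. Of 19938 genes tested, 271 met both conditions (1.36%), 206 of them higher in FGFR1OP-RET (1.03%) and 65 lower (0.326%). The test alone was passed by 274 genes (1.37%), of which 3 had a mean that lay neither above both nor below both BCR groups.

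BaF3 is a mouse haematopoietic cell line that depends on interleukin-3. The cells were infected with a retrovirus carrying FGFR1OP-RET, BCR-RET or BCR-ABL and sorted by EGFP fluorescence, and their total RNA was hybridised to Affymetrix MouseGene 1.0 ST arrays. All 9 arrays are of infected, sorted cells of this line, and cells without a fusion were not analysed here, so each value compares fusions with each other. Whether interleukin-3 was present, and whether the 3 arrays of a fusion came from separate infections, the sources used here do not say. P-values therefore describe variation among these arrays, and that variation may be only technical.

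RET is a receptor tyrosine kinase that in these fusions has lost its own extracellular part and is brought together by a partner protein. FGFR1OP, whose mouse gene is now called Cep43, is a protein of the centrosome, whereas BCR is a cytoplasmic protein best known from the BCR-ABL kinase of chronic myeloid leukaemia. Such kinases signal through the STAT, RAS-ERK and phosphatidylinositol 3-kinase pathways and let BaF3 cells grow without interleukin-3.

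The values are log2 summaries of the probes of a gene, so a difference of 1 is a doubling, and levels are comparable between arrays but not between genes. Array medians lay between 8.01 and 8.04. Pearson correlations between arrays of FGFR1OP-RET, across probe sets, were 0.9929 to 0.9937, against 0.9933 to 0.9961 within BCR-RET and 0.9947 to 0.9963 within BCR-ABL. The median SD over genes was 0.09 in FGFR1OP-RET, 0.08 in BCR-RET and 0.07 in BCR-ABL. The interleukin-3 receptor genes Il3ra and Csf2rb, which the line needs, had mean values of 10.52 and 12.72 in FGFR1OP-RET, 10.39 and 12.75 in BCR-RET and 10.33 and 12.03 in BCR-ABL. Without detection calls, presence or absence of a transcript cannot be read from such values. A difference passed at an adjusted p under 0.05 from limma with Benjamini-Hochberg adjustment over all genes, and every adjusted p below comes from that test. SE stands for the standard error of such a difference in the same fit, with 3 arrays in each group.

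The fusion partner genes were examined first. Ret had log2 values of 8.11, 8.02 and 8.05 in FGFR1OP-RET, 8.07, 8.0 and 8.0 in BCR-RET and 7.91, 7.97 and 7.80 in BCR-ABL. The Ret difference was 0.10 against both BCR groups (SE 0.05, adjusted p 0.446). Cep43 differed by 0.09 (SE 0.04, adjusted p 0.378), Bcr by -0.36 (SE 0.10, adjusted p 0.138) and Abl1 by -0.02 (SE 0.06, adjusted p 0.94). None of the 4 therefore passed the test against both BCR groups. Abl1 had 10.94, 10.87 and 11.01 in FGFR1OP-RET, 10.71, 10.86 and 10.63 in BCR-RET and 11.14, 11.27 and 11.17 in BCR-ABL. Its difference of BCR-RET from BCR-ABL was -0.46 and did pass (adjusted p 0.0219). All FGFR1OP-RET arrays lay below all BCR arrays in Bcr, as in 2.24% of all genes. In Cep43 they lay above all BCR arrays, as in 3.31% of all genes. The sources used here do not give the species of the constructs' sequences or the place of the probes relative to the fused parts, so these levels do not check the labels.

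Among the genes that were higher in FGFR1OP-RET, the difference ran from 0.21 to 1.61 with a median of 0.44, and 23 of the 206 reached 1. Among the lower genes its size ran from 0.22 to 1.65 with a median difference of -0.41, and 5 of the 65 reached 1. All 3 FGFR1OP-RET arrays lay above all 6 BCR arrays in 196 of the 206 higher genes, where 3.31% of all genes tested did so. They lay below all 6 in 58 of the 65 lower genes, where 2.24% of all genes did so. Both conditions come from the same contrast as the choice of genes, so these shares describe the genes and support nothing further.

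**Figure D1:**
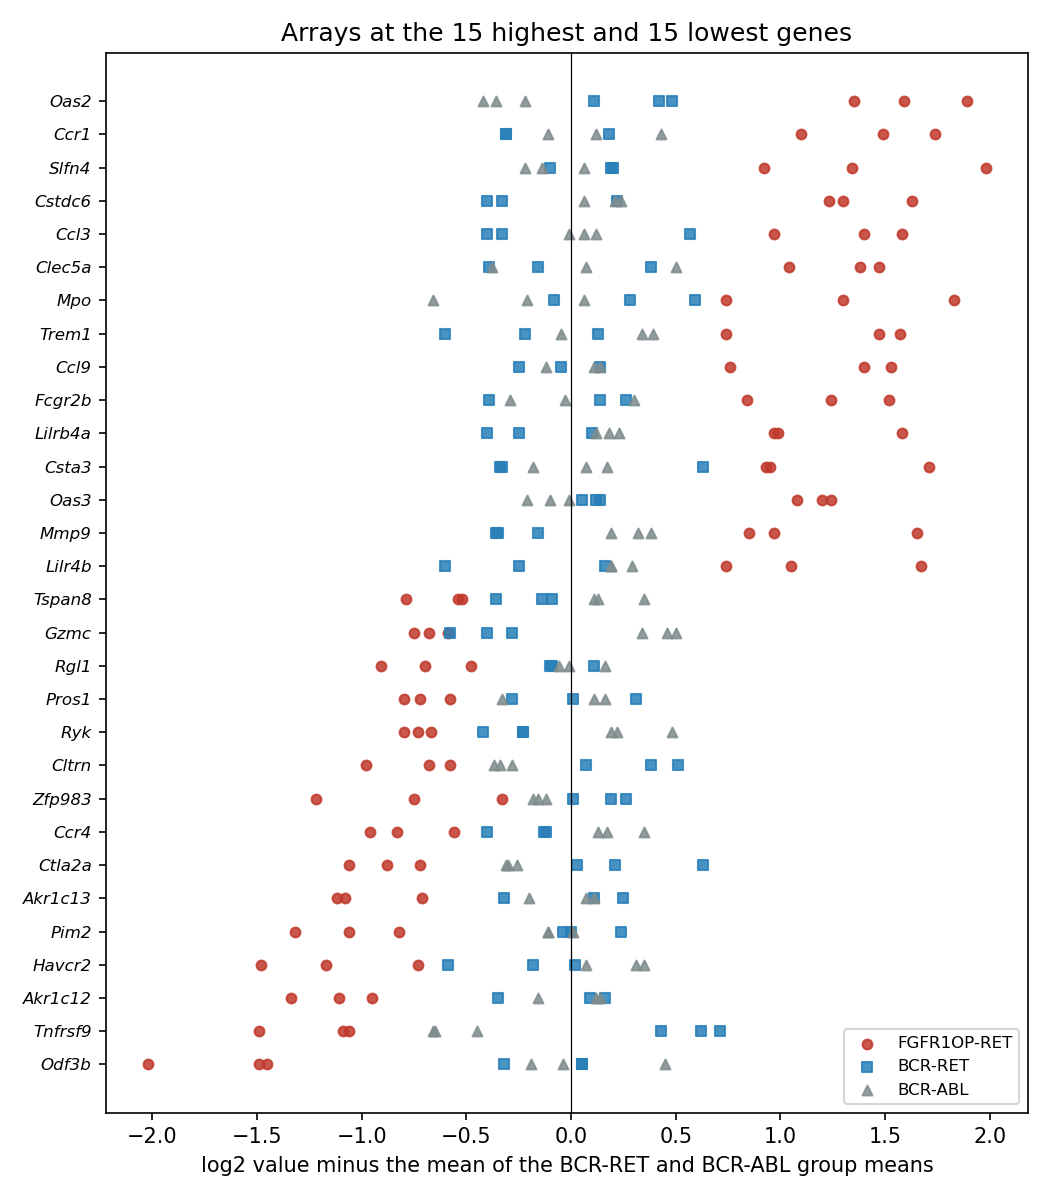
Log2 values of single arrays, each minus the mean of the BCR-RET and BCR-ABL group means of that gene, for the 15 highest and 15 lowest differences (x axis, log2). Circles are FGFR1OP-RET, squares BCR-RET and triangles BCR-ABL arrays; in each row the 3 circles lie to one side of the 6 other points, and in rows such as Tnfrsf9 and Gzmc the squares and triangles are also apart.

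Interferon response genes were the list with the most members. Type I interferons switch on antiviral genes, among them the Oas genes, which sense double-stranded RNA, and Irf7, the factor that amplifies interferon production. Of 34 measured genes of the list 15 were higher in FGFR1OP-RET and none was lower. The median difference of the list was 0.37, against -0.01 over all genes tested. Oas2 had log2 values of 11.04, 10.74 and 10.50 in FGFR1OP-RET, 9.63, 9.57 and 9.26 in BCR-RET and 8.93, 8.79 and 8.73 in BCR-ABL. The 3 fusions thus did not overlap in Oas2, and the order was FGFR1OP-RET, BCR-RET, BCR-ABL. Oas2 was 3.05-fold higher in FGFR1OP-RET than the mean of the BCR groups (log2 difference 1.61, SE 0.12, adjusted p 0.000614). In bulk RNA a larger share of cells expressing a gene and more RNA per cell cannot be told apart.

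Oas3 had 9.38, 9.34 and 9.22 in FGFR1OP-RET, 8.26, 8.28 and 8.19 in BCR-RET and 8.04, 8.13 and 7.93 in BCR-ABL, again without overlap. The Oas3 difference was 1.17 (SE 0.06, adjusted p 3.12e-05). The promoter of Oas3 is shown because it holds an interferon-stimulated response element (GAAA, any 2 bases, GAAA). It is the RefSeq window from 250 bases before to 50 after the start, GRCm38.p6, chr5:120777610-120777909, minus strand, with the match in capitals at position -75 from the start:
Oas3: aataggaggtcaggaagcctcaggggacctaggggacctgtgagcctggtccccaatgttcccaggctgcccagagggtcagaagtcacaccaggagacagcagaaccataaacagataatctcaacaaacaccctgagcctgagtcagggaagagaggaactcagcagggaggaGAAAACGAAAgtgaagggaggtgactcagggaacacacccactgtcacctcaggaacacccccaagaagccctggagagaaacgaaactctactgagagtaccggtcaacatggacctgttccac

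Irf7 had 9.15, 9.28 and 9.06 in FGFR1OP-RET, 8.46, 8.68 and 8.21 in BCR-RET and 7.80, 8.08 and 7.85 in BCR-ABL. The difference in Irf7 was 0.98 (SE 0.10, adjusted p 0.00233). Ifi27, a mitochondrial interferon-induced protein, had 11.92, 11.87 and 11.68 in FGFR1OP-RET, 11.11, 11.12 and 11.20 in BCR-RET and 10.80, 10.71 and 10.70 in BCR-ABL. In both genes the 3 groups were separate, with BCR-RET between the others. The Ifi27 difference was 0.88 (SE 0.06, adjusted p 0.000494). The other 11 members were Usp18, Ddx58, Irgm1, Oasl2, Zbp1, Xaf1, Irf9, Rtp4, Trim30a, Oasl1 and Ifih1, with differences between 0.41 and 0.85. All 15 passed against BCR-ABL alone and 7 against BCR-RET alone; of these 11, 8 did not pass against BCR-RET (adjusted p 0.0746 to 0.248). In Usp18 and Zbp1 the FGFR1OP-RET arrays overlapped the BCR-RET arrays. Ddx58 and Ifih1 encode the RNA sensors RIG-I and MDA5, and Irf9 is the DNA-binding part of the interferon-activated complex.

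Classical interferon targets of the same list did not pass. Ifit1 differed by 0.28 (adjusted p 0.416), Rsad2 by 0.23 (adjusted p 0.268), Mx1 by -0.19 (adjusted p 0.282) and Ifit3 by -0.12 (adjusted p 0.589). The chemokine gene Cxcl10 differed by -0.20 (adjusted p 0.413). In Ifit1, Ifit3 and Cxcl10 the FGFR1OP-RET mean lay below BCR-RET and above BCR-ABL. The Cxcl10 difference, for example, was -0.78 against BCR-RET and 0.38 against BCR-ABL, 2 comparisons that share the FGFR1OP-RET arrays.

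The median of the interferon list, as a deviation from the 9-array mean of each gene, was 0.29, 0.30 and 0.18 on the FGFR1OP-RET arrays, 0.00, 0.11 and -0.04 on the BCR-RET arrays and -0.30, -0.33 and -0.25 on the BCR-ABL arrays. The 3 fusions did not overlap in it. Over the list the median difference of FGFR1OP-RET was 0.25 against BCR-RET and 0.53 against BCR-ABL, and that of BCR-RET against BCR-ABL was 0.27. Leaving out each of the 9 arrays in turn kept 9 of the 15 members past the threshold every time.

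Schlafen genes, which are induced by interferon and regulate the growth of blood cells, had 3 members among 7 measured, all higher. Slfn4 had 10.09, 10.73 and 9.67 in FGFR1OP-RET, 8.94, 8.65 and 8.95 in BCR-RET and 8.81, 8.61 and 8.53 in BCR-ABL. The FGFR1OP-RET arrays were the most spread, yet all lay above the other 6. Slfn4 differed by 1.41 (SE 0.19, adjusted p 0.00834). Slfn1 had 8.44, 8.50 and 8.58 in FGFR1OP-RET, 7.64, 7.23 and 7.48 in BCR-RET and 7.55, 7.42 and 7.64 in BCR-ABL, so the BCR groups overlapped and FGFR1OP-RET stood above both. The Slfn1 difference was 1.02 (SE 0.09, adjusted p 0.00103), and that of Slfn5 was 0.73 (SE 0.13, adjusted p 0.0311). Slfn5 held in 2 of the 9 fits with 1 array out. Slfn2, Slfn3, Slfn8 and Slfn9 had differences between -0.21 and 0.17 and did not pass.

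Antigen presentation had 2 members among 13 measured genes. Tapbp, encoding tapasin, which loads peptides onto class I molecules, differed by 0.41 (SE 0.04, adjusted p 0.00208). Tap1, a chain of the peptide transporter, differed by 0.39 (SE 0.05, adjusted p 0.00506). Tapbp had 10.52, 10.56 and 10.56 in FGFR1OP-RET, 10.27, 10.35 and 10.24 in BCR-RET and 9.99, 9.96 and 10.01 in BCR-ABL, with no overlap among the 3 fusions. B2m, the light chain of class I, differed by -0.02 (adjusted p 0.938), and the class II gene H2-Ab1 by 0.03 (adjusted p 0.874).

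**Figure D2:**
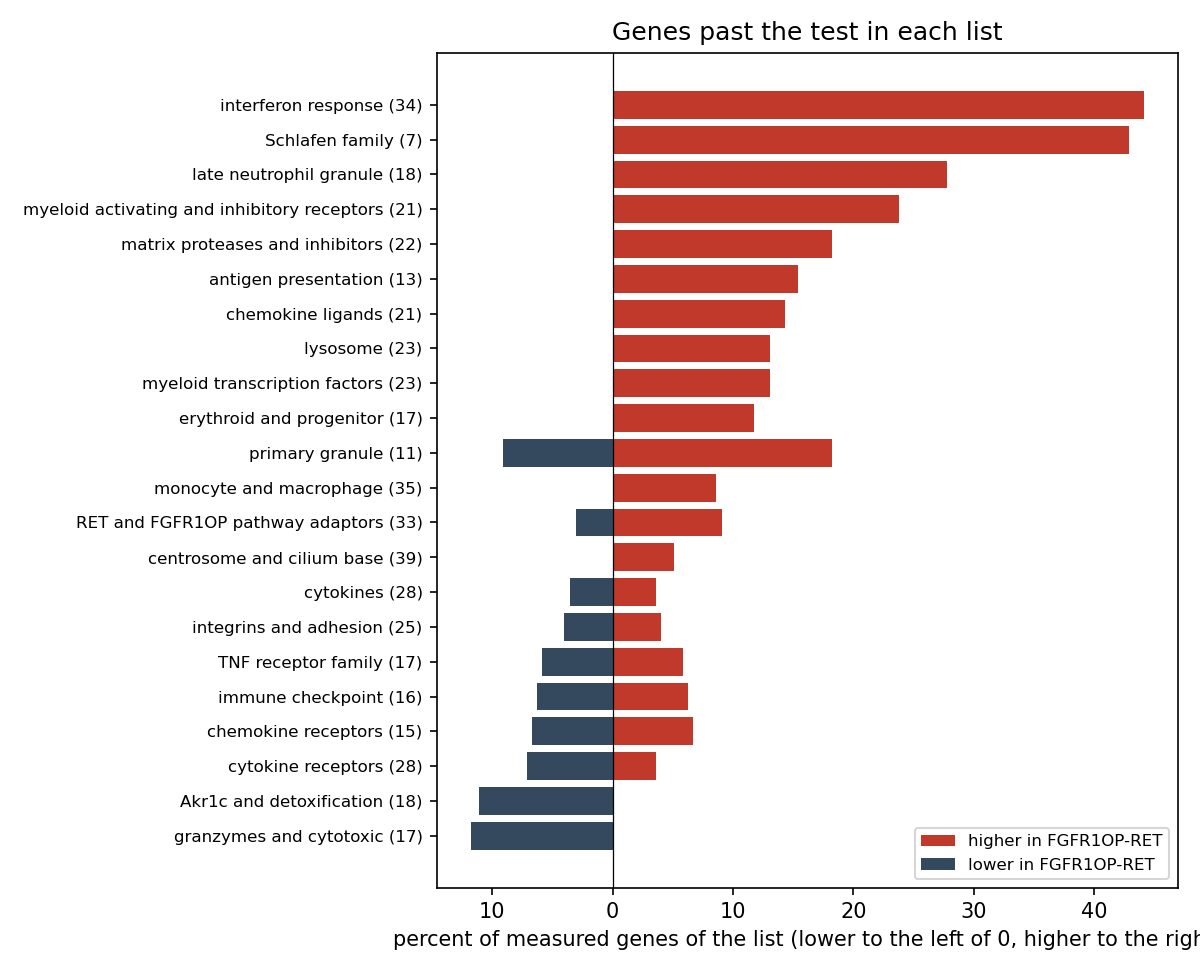
Percent of the measured genes of each list (number measured in parentheses) that were higher in FGFR1OP-RET (right of 0) or lower (left of 0), for the 22 lists with at least 2 such genes. The interferon list reached 15 of 34 genes higher, and the granzyme and Akr1c lists had lower genes alone.

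Granule and neutrophil genes were higher in part. Primary granules are the first storage granules of a maturing neutrophil and hold myeloperoxidase and serine proteases; later granules hold matrix proteases. Of 11 genes of the primary granule list 2 were higher and 1 was lower, with a list median of 0.55. The late neutrophil granule list does not hold granule proteins alone. Of its 18 genes 5 were higher and none lower, with a median of 0.22. The median of the primary granule list was 0.08 against BCR-RET and 0.71 against BCR-ABL, and that of the late granule list was 0.07 against BCR-RET and 0.49 against BCR-ABL. BCR-RET minus BCR-ABL had medians of 0.58 for the primary and 0.41 for the late granule list, so over these lists BCR-ABL was the low group. Mpo, encoding myeloperoxidase, had 10.24, 10.80 and 11.33 in FGFR1OP-RET, 9.42, 9.78 and 10.09 in BCR-RET and 8.84, 9.29 and 9.56 in BCR-ABL. All FGFR1OP-RET arrays lay above the others, but within each fusion Mpo spread over at least 0.6 log2 units. The Mpo difference was 1.29 (SE 0.24, adjusted p 0.0343). It passed in 1 of the 9 fits with 1 array out, in which the adjusted p lay between 0.0199 and 0.156. Mpo differed by 1.02 from BCR-RET alone (adjusted p 0.14) and by 1.55 from BCR-ABL alone (adjusted p 0.0347).

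The Mpo promoter is shown because it holds GAGGAAGT, a form of the site bound by PU.1, a transcription factor of myeloid cells. The RefSeq window is GRCm38.p6, chr11:87793534-87793833, plus strand, and the match in capitals begins at position -224 from the start:
Mpo: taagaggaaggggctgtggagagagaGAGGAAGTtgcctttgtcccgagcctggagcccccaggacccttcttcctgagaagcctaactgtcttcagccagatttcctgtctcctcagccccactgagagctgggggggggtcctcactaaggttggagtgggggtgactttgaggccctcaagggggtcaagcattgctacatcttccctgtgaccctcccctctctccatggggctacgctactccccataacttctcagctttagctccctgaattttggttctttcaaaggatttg

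Prtn3, encoding proteinase 3, had 11.19, 11.31 and 11.58 in FGFR1OP-RET, 10.60, 10.69 and 10.85 in BCR-RET and 9.90, 10.05 and 10.31 in BCR-ABL, without overlap. Prtn3 differed by 0.96 (SE 0.11, adjusted p 0.00302) and passed without each of the 9 arrays. Cst7, encoding cystatin F, an inhibitor of cysteine proteases, was the primary granule member that was lower, with a difference of -0.56 (SE 0.10, adjusted p 0.0311). Its arrays had 10.16, 10.24 and 10.63 in FGFR1OP-RET, 11.03, 11.27 and 11.29 in BCR-RET and 10.54, 10.66 and 10.66 in BCR-ABL. One FGFR1OP-RET array overlapped the BCR-ABL arrays there, and Cst7 held in 2 of the 9 fits with 1 array out. Elane, encoding neutrophil elastase, differed by 0.59 (adjusted p 0.205) and Ctsg, encoding cathepsin G, by 0.97 (adjusted p 0.295).

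Of the late granule members, Mmp9, the gelatinase that degrades matrix collagen, had 10.30, 10.98 and 10.18 in FGFR1OP-RET, 8.97, 8.98 and 9.17 in BCR-RET and 9.52, 9.65 and 9.71 in BCR-ABL. Here BCR-RET was the lowest group, and the 3 fusions did not overlap. The Mmp9 difference was 1.15 (SE 0.15, adjusted p 0.00741). Cebpe, a transcription factor of late neutrophil maturation rather than a granule protein, differed by 0.78 (SE 0.08, adjusted p 0.00191), with 10.87, 11.01 and 11.15 in FGFR1OP-RET, 10.21, 10.31 and 10.32 in BCR-RET and 10.09, 10.12 and 10.34 in BCR-ABL. Stfa2, a cysteine protease inhibitor, differed by 1.01 (SE 0.18, adjusted p 0.0252). Mmp8, the neutrophil collagenase, differed by 1.00 (SE 0.19, adjusted p 0.0374). S100a9, a calcium-binding protein of neutrophils, differed by 0.77 (SE 0.14, adjusted p 0.0311). Against BCR-RET alone Mmp9 and Cebpe passed. Mmp8 (0.67, adjusted p 0.216), S100a9 (0.59, adjusted p 0.145) and Stfa2 (0.99, adjusted p 0.0527) did not. Against BCR-ABL alone Mmp9 (0.86, adjusted p 0.0637) and Stfa2 (1.04, adjusted p 0.0511) did not pass, and the others did. Of these 5, Mmp9 and Cebpe passed without each of the 9 arrays; the highest adjusted p with 1 array out was 0.145 for Stfa2, 0.114 for Mmp8 and 0.16 for S100a9.

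Other neutrophil granule genes did not pass, namely Ltf (0.25, adjusted p 0.686), Camp (-0.03, adjusted p 0.839), Ngp (0.02, adjusted p 0.971) and Chil3 (-0.34, adjusted p 0.442). The per-array median of the primary granule list was -0.05, 0.33 and 0.58 in FGFR1OP-RET, -0.13, -0.01 and 0.16 in BCR-RET and -0.57, -0.48 and -0.14 in BCR-ABL. The FGFR1OP-RET arrays therefore overlapped BCR-RET in that median.

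Receptors of myeloid cells that signal through DAP12 or Fc receptor chains, or that inhibit such signals, had 5 members of 21 measured, all higher, with a list median of 0.24. Clec5a, a lectin receptor of monocytes and neutrophils, had 11.57, 12.0 and 11.91 in FGFR1OP-RET, 10.14, 10.37 and 10.91 in BCR-RET and 10.15, 10.60 and 11.03 in BCR-ABL. The BCR groups overlapped in Clec5a and FGFR1OP-RET lay above both, by 1.30 (SE 0.21, adjusted p 0.0187). Trem1, which amplifies inflammatory responses of myeloid cells, had 9.67, 10.40 and 10.50 in FGFR1OP-RET, 8.33, 8.71 and 9.06 in BCR-RET and 8.88, 9.27 and 9.32 in BCR-ABL, with a difference of 1.26 (SE 0.21, adjusted p 0.0209). Fcgr2b, the inhibitory receptor for immunoglobulin G, had 10.81, 11.21 and 11.49 in FGFR1OP-RET, 9.58, 10.11 and 10.23 in BCR-RET and 9.68, 9.94 and 10.27 in BCR-ABL. Fcgr2b differed by 1.20 (SE 0.19, adjusted p 0.0178), which was 1.20 against BCR-RET and 1.21 against BCR-ABL.

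Trem1 is shown with its promoter because the window holds TTCNNNGAA, a gamma-activated site of the kind that STAT factors bind. This RefSeq window is GRCm38.p6, chr17:48232489-48232788, plus strand, and the match begins at position -171 from the start:
Trem1: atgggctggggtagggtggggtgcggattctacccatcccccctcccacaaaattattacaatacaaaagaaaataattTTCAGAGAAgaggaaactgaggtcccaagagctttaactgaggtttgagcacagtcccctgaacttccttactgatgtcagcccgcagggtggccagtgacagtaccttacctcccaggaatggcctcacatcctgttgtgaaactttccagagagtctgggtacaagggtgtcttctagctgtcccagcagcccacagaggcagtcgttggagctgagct

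Lilrb4a, an inhibitory receptor, had values between 9.98 and 10.59 in FGFR1OP-RET, 8.61, 8.76 and 9.11 in BCR-RET and 9.13, 9.24 and 9.19 in BCR-ABL, and differed by 1.19 (SE 0.14, adjusted p 0.00506). Lilr4b, a close relative, differed by 1.15 (SE 0.20, adjusted p 0.0252), and Fcgr3 by 0.98 (SE 0.17, adjusted p 0.026). Whether probes of such close relatives measure each other's transcripts was not tested. Tyrobp, encoding the shared adaptor DAP12, differed by 0.51 (adjusted p 0.351), and Fcer1g, encoding the Fc receptor chain, by -0.16 (adjusted p 0.759). With 1 array out, the highest adjusted p was 0.115 for Clec5a, 0.122 for Trem1, 0.103 for Fcgr2b, 0.15 for Fcgr3 and 0.0922 for Lilr4b, while Lilrb4a held each time.

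Chemokine genes had 3 of 21 ligands and 1 of 15 receptors higher, and 1 receptor lower. Ccl3 and Ccl9 are ligands of Ccr1, which guides neutrophils and monocytes. Ccl3 had 10.45, 11.06 and 10.88 in FGFR1OP-RET, 9.08, 9.15 and 10.05 in BCR-RET and 9.47, 9.54 and 9.60 in BCR-ABL. Its difference was 1.31 (SE 0.21, adjusted p 0.0183), and 5 of the 9 fits with 1 array out kept it. Ccl9 had 10.42, 11.19 and 11.06 in FGFR1OP-RET, 9.41, 9.61 and 9.80 in BCR-RET and 9.54, 9.77 and 9.80 in BCR-ABL. The Ccl9 difference was 1.24 (SE 0.16, adjusted p 0.0067).

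The receptor gene Ccr1 had 9.09, 9.48 and 9.73 in FGFR1OP-RET, 7.68, 7.68 and 8.17 in BCR-RET and 7.88, 8.11 and 8.42 in BCR-ABL. FGFR1OP-RET lay above both BCR groups, which overlapped, by 1.44 (SE 0.17, adjusted p 0.00387), and both Ccl9 and Ccr1 passed without each of the 9 arrays. Cxcl2, a ligand that attracts neutrophils, differed by 0.54 (SE 0.09, adjusted p 0.0191) and held in 5 of the 9 fits with 1 array out. The lower receptor was Ccr4, the receptor for Ccl17 and Ccl22 on T helper cells, with 9.08, 9.21 and 9.48 in FGFR1OP-RET, 9.64, 9.92 and 9.91 in BCR-RET and 10.21, 10.17 and 10.39 in BCR-ABL. It differed by -0.79 (SE 0.10, adjusted p 0.00555). The promoter of Ccl9 holds a form of the NF-kB site (GGG, any 2 bases, TTTCC) on the strand opposite to the gene, so that its capitals read GGAAAGCCCC. The RefSeq window is GRCm38.p6, chr11:83578587-83578886, minus strand, and the match begins at position -35 from the start:
Ccl9: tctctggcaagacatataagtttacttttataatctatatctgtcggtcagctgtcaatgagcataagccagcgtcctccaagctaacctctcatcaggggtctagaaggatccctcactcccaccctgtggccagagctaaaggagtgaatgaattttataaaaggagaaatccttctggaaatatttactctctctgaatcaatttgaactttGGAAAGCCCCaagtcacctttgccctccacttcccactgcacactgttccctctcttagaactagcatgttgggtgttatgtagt

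Across the promoters, 15563 of the 19938 genes had a RefSeq window of this length, as did 165 of the 206 higher and 56 of the 65 lower genes. Both strands were searched, and a gene with several starts counted if any window matched. The interferon element was in 11.5% of the windows of higher genes (19 of 165), 1.79% of those of lower genes and 3.89% of all windows, and in 5 of the 10 windows of interferon list members. The PU.1 form was in 7.27% of the windows of higher genes, 5.36% of lower genes and 3.24% of all. For the NF-kB form these shares were 3.64%, 3.57% and 1.83%, and for the STAT site, which reads the same on both strands, 8.48%, 17.9% and 9.01%. The 4 motifs can overlap, and the printed promoters were chosen among named genes that hold one, after matches were seen.

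Monocyte and macrophage genes had 3 members of 35, all higher, with a list median of 0.00. Cd14, the co-receptor for lipopolysaccharide, had 8.20, 8.81 and 8.08 in FGFR1OP-RET, 7.18, 7.10 and 7.19 in BCR-RET and 7.40, 7.21 and 7.32 in BCR-ABL. The FGFR1OP-RET arrays lay clear of the other 6, by 1.13 on average (SE 0.14, adjusted p 0.00496). Mpeg1, a pore-forming protein of macrophages, differed by 1.08 (SE 0.12, adjusted p 0.00307). Ifi30, a lysosomal thiol reductase, differed by 0.36 (SE 0.06, adjusted p 0.02) and held in 5 of the 9 fits with 1 array out. Defining macrophage genes did not pass, with Csf1r at -0.04 (adjusted p 0.832), Adgre1 at -0.03 (adjusted p 0.962) and Cd68 at 0.20 (adjusted p 0.272).

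Matrix proteases and their regulators had 4 of 22 higher, namely Mmp9 and Mmp8 above, Plaur and Adam8. Plaur, the urokinase receptor, had 10.62, 10.89 and 10.36 in FGFR1OP-RET, 9.65, 9.57 and 9.65 in BCR-RET and 9.80, 9.82 and 9.88 in BCR-ABL. Plaur differed by 0.90 (SE 0.10, adjusted p 0.00237) and Adam8, a shedding protease of leukocytes, by 0.68 (SE 0.07, adjusted p 0.00207). The median of this list was -0.03. Csta3 and Cstdc6, relatives of the stefin A inhibitors of cysteine proteases, were among the 15 highest genes. Cstdc6 had 8.70, 9.03 and 8.63 in FGFR1OP-RET, 7.07, 7.0 and 7.62 in BCR-RET and 7.64, 7.61 and 7.46 in BCR-ABL, a difference of 1.39 (SE 0.14, adjusted p 0.00208). Csta3 differed by 1.19 (SE 0.24, adjusted p 0.0489) and held in 1 of 9 fits with 1 array out.

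Transcription factors of myeloid cells had 3 of 23 higher, Cebpe above, Id2 by 0.37 (SE 0.07, adjusted p 0.0483) and Myb by 0.27 (SE 0.05, adjusted p 0.0454). Id2 and Myb each held in 1 of the 9 fits with 1 array out. Lmo2, an adaptor of haematopoietic transcription complexes, had 10.58, 10.43 and 10.81 in FGFR1OP-RET, 9.55, 9.72 and 9.65 in BCR-RET and 10.03, 10.06 and 10.10 in BCR-ABL. The 3 groups were apart, and Lmo2 differed by 0.75 (SE 0.08, adjusted p 0.00208). Nfe2, a factor of erythroid cells and megakaryocytes, differed by 0.29 (SE 0.05, adjusted p 0.0311) and held in none of the 9 fits with 1 array out. These were the 2 members of the erythroid and progenitor list among 17. Lysosomal genes had 3 of 23 higher, Tcirg1 (a proton pump subunit) by 0.48 (adjusted p 0.00218), Neu1 (a sialidase) by 0.24 (adjusted p 0.0187) and Mcoln1 (a cation channel) by 0.23 (adjusted p 0.0407). With 1 array out, Tcirg1 held in all 9 fits, Neu1 in 5 and Mcoln1 in none.

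**Figure D3:**
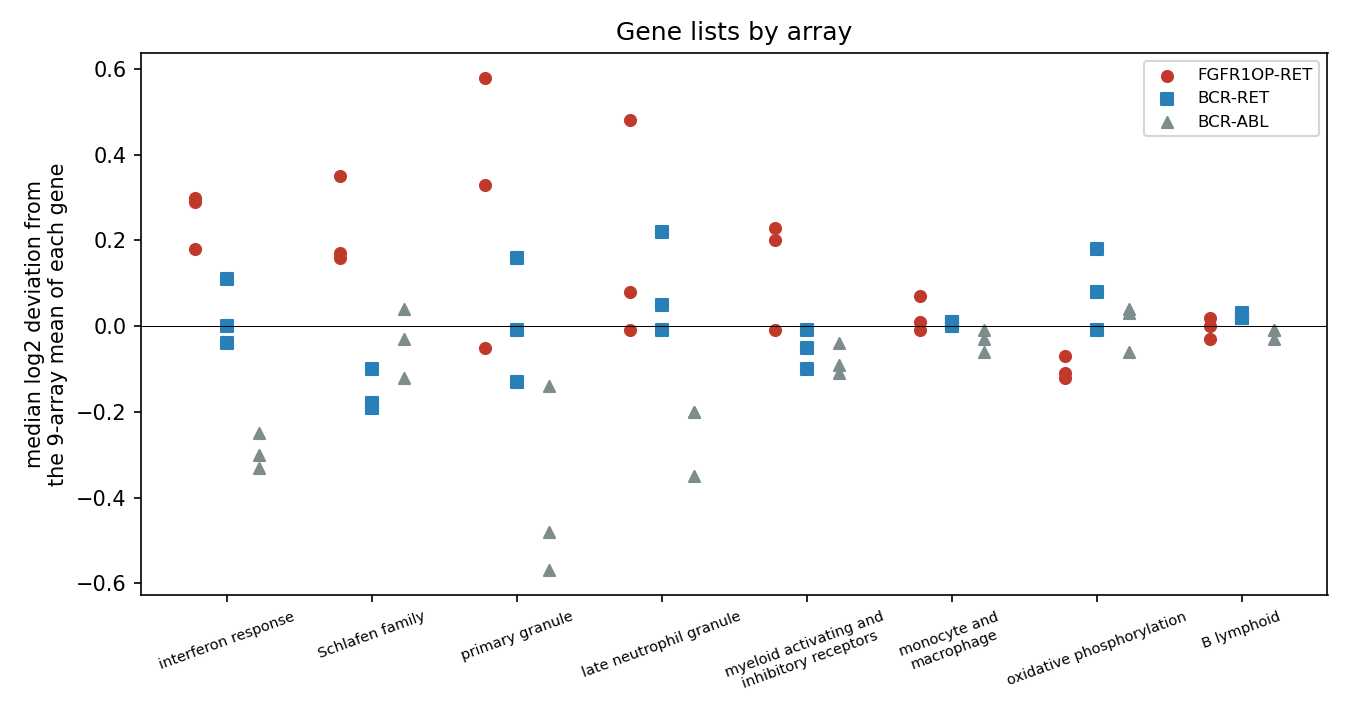
Median deviation of each list's genes from their own 9-array mean (y axis, log2) on each array, for 8 lists. FGFR1OP-RET arrays (circles) lay above both BCR groups in the interferon and Schlafen lists, overlapped BCR-RET in the granule lists and lay below in oxidative phosphorylation, where none of the genes passed the test.

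Adaptors and regulators of kinase signalling had 3 of 33 higher and 1 lower. Dok2, which damps signalling below tyrosine kinases, had 11.33, 11.33 and 11.29 in FGFR1OP-RET, 11.62, 11.71 and 11.62 in BCR-RET and 11.88, 11.82 and 11.74 in BCR-ABL. The groups did not overlap, and Dok2 differed by -0.41 (SE 0.05, adjusted p 0.00288). Its relative Dok3 differed by 0.41 in the other direction (SE 0.07, adjusted p 0.0209). Cbl, the ubiquitin ligase that removes active receptor kinases, differed by 0.25 (SE 0.04, adjusted p 0.0187), and Gab2, an adaptor for phosphatidylinositol 3-kinase, by 0.25 (SE 0.05, adjusted p 0.0483). Gab2 held in none of the 9 fits with 1 array out, Dok3 in 3 and Cbl in 5. Gab2 differed by 0.12 from BCR-RET (adjusted p 0.362) and by 0.37 from BCR-ABL (adjusted p 0.0162).

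Of the centrosome and cilium base list, to which FGFR1OP belongs by its role, 2 of 39 measured genes were higher and the median was 0.02. Nin, encoding ninein, which anchors microtubules at the centrosome, had 11.14, 11.16 and 11.20 in FGFR1OP-RET, 10.77, 10.67 and 10.66 in BCR-RET and 10.85, 10.87 and 10.90 in BCR-ABL. The Nin difference of 0.38 (SE 0.04, adjusted p 0.0029) held without each array. Cep164, a protein of the appendages of the mother centriole, differed by 0.29 (SE 0.05, adjusted p 0.0244) and held in 4 of the 9 fits with 1 array out.

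Genes lower in FGFR1OP-RET were led by Odf3b, named for the outer dense fibres of sperm tails. Odf3b had 9.21, 9.25 and 8.68 in FGFR1OP-RET, 10.75, 10.75 and 10.38 in BCR-RET and 11.15, 10.66 and 10.51 in BCR-ABL. The BCR groups overlapped and FGFR1OP-RET lay below both, 3.14-fold lower on average (log2 difference -1.65, SE 0.17, adjusted p 0.00208). Pim2, a serine/threonine kinase that supports survival and is induced by STAT5, had 11.31, 10.81 and 11.07 in FGFR1OP-RET, 12.13, 12.37 and 12.09 in BCR-RET and 12.14, 12.02 and 12.02 in BCR-ABL. The difference in Pim2 was -1.06 (SE 0.10, adjusted p 0.00191), with -1.13 against BCR-RET and -0.99 against BCR-ABL. It was the single member among 23 measured STAT5 and STAT3 targets, whose median was 0.02. Cish, another STAT5 target, differed by -0.34 (adjusted p 0.0801), Pim1 by -0.14 (adjusted p 0.418) and Socs2 by -0.06 (adjusted p 0.895).

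Akr1c12 and Akr1c13, aldo-keto reductases that reduce steroids and other carbonyl compounds, were the 2 lower members among 18 detoxification genes. Akr1c12 had 9.74, 9.51 and 9.90 in FGFR1OP-RET, 10.50, 10.94 and 11.01 in BCR-RET and 10.69, 10.97 and 10.99 in BCR-ABL, a difference of -1.13 (SE 0.13, adjusted p 0.00307). Akr1c13 differed by -0.97 (SE 0.14, adjusted p 0.011). The rest of this list did not pass, including Nqo1 (-0.21, adjusted p 0.492) and Hmox1 (0.31, adjusted p 0.308). As these 2 genes are close relatives, shared signal between their probes was not tested.

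Receptors of activated lymphocytes went both ways, with 1 gene higher and 1 lower among 17 of the TNF receptor family and the same among 16 checkpoint genes. Tnfrsf9, the costimulatory receptor 4-1BB, had 10.29, 9.89 and 10.32 in FGFR1OP-RET, 11.81, 12.09 and 12.0 in BCR-RET and 10.73, 10.72 and 10.93 in BCR-ABL. FGFR1OP-RET was lowest and BCR-RET highest, with a difference of -1.21 (SE 0.10, adjusted p 0.00117). Havcr2, the inhibitory receptor TIM-3, had 9.23, 9.54 and 9.98 in FGFR1OP-RET, 10.12, 10.73 and 10.53 in BCR-RET and 10.78, 11.02 and 11.06 in BCR-ABL, and differed by -1.12 (SE 0.17, adjusted p 0.0153). Il2ra, the alpha chain of the interleukin-2 receptor, differed by -0.50 (SE 0.09, adjusted p 0.0277), which was -0.90 against BCR-RET and -0.10 against BCR-ABL. Il2ra held in 2 of the 9 fits with 1 array out. Tnfrsf14, another receptor of the TNF family, was higher by 0.54 (SE 0.09, adjusted p 0.0193) and held in 4 of these 9 fits. Cd200r1, an inhibitory receptor of myeloid cells, was higher by 0.72 (SE 0.07, adjusted p 0.00208).

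Cytokines had 1 of 28 genes higher and 1 lower, and cytokine receptors 1 of 28 higher and 2 lower. Il1rn, the secreted antagonist of interleukin-1, had 8.12, 8.30 and 8.16 in FGFR1OP-RET, 7.70, 7.70 and 7.58 in BCR-RET and 7.55, 7.45 and 7.59 in BCR-ABL, and was higher by 0.60 (SE 0.06, adjusted p 0.0019). Lta, encoding lymphotoxin, was lower, with a difference of -0.40 (SE 0.07, adjusted p 0.0193). Of the receptors, Il4ra differed by -0.25 (SE 0.05, adjusted p 0.0491) and Il18rap by 0.32 (SE 0.06, adjusted p 0.0368). With 1 array out, Il4ra held in 1 of the 9 fits, Il18rap in 2 and Lta in 4. Among adhesion genes, Itgb2, the beta chain of leukocyte integrins, differed by 0.50 (SE 0.08, adjusted p 0.0209) and Itgav, an alpha chain, by -0.36 (SE 0.06, adjusted p 0.0171), 1 higher and 1 lower gene among 25. Itgav differed by -0.17 from BCR-RET (adjusted p 0.263), whose arrays it overlapped, and by -0.54 from BCR-ABL (adjusted p 0.00506). Itgb2 held in 4 of the 9 fits with 1 array out and Itgav in 7.

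Granzymes, proteases of cytotoxic granules, had 2 of 17 genes lower. Gzmc had 11.86, 11.77 and 11.70 in FGFR1OP-RET, 11.87, 12.05 and 12.17 in BCR-RET and 12.79, 12.95 and 12.91 in BCR-ABL. The FGFR1OP-RET and BCR-RET arrays were nearly level, with 0.01 between the nearest, and BCR-ABL stood above them. Gzmc differed by -0.68 from the BCR mean (SE 0.07, adjusted p 0.00233), but by -0.25 from BCR-RET (adjusted p 0.219) and -1.11 from BCR-ABL (adjusted p 0.000709). Gzmg differed by -0.33 (SE 0.05, adjusted p 0.0118) and Gzmb by -0.23 (adjusted p 0.0551). The T and NK cell list had 1 member among 17 measured genes, Lat, an adaptor of T cell receptor signalling, at -0.28 (adjusted p 0.0351), and a median of -0.05.

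The remaining 7 of the 15 lowest genes have varied roles. Ctla2a, similar to the propeptide of cathepsins, differed by -0.89 (SE 0.12, adjusted p 0.00924). This was -1.18 against BCR-RET (adjusted p 0.00591) and -0.60 against BCR-ABL (adjusted p 0.113). Ryk, a receptor of the Wnt pathway without kinase activity, had 7.15, 7.08 and 7.21 in FGFR1OP-RET, 7.46, 7.65 and 7.65 in BCR-RET and 8.07, 8.10 and 8.36 in BCR-ABL, so that the 3 groups were apart. The Ryk difference was -0.74 (SE 0.07, adjusted p 0.00208). Cltrn, encoding collectrin, differed by -0.74, Zfp983, a zinc finger protein, by -0.77, Pros1, the anticoagulant protein S, by -0.70, Rgl1, an exchange factor for Ral, by -0.70 and Tspan8, a tetraspanin, by -0.61. Cltrn differed by -1.07 from BCR-RET (adjusted p 0.00546) and by -0.42 from BCR-ABL (adjusted p 0.243). Zfp983 likewise passed against BCR-RET only, Tspan8 against BCR-ABL only, Rgl1 against each and Pros1 against neither. Zfp983 and Pros1 had adjusted p of 0.0483 and 0.047 and were each lost in at least 7 of the 9 fits with 1 array out.

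**Figure D4:**
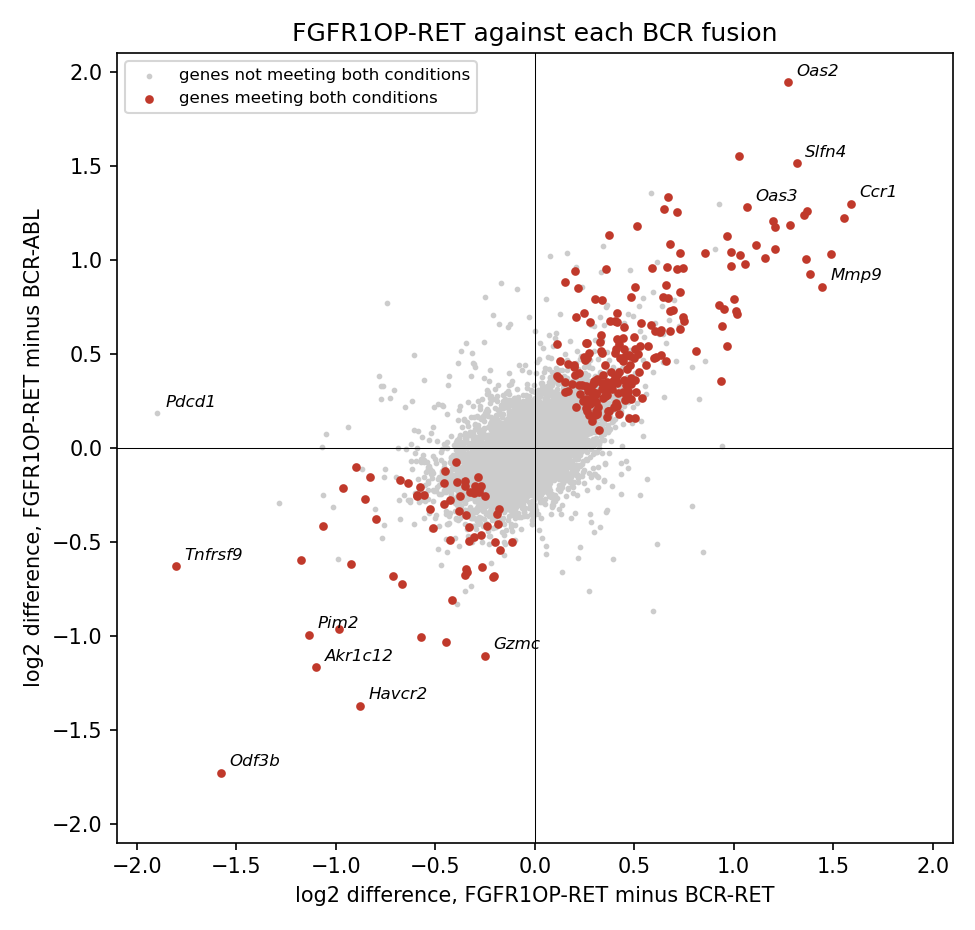
Log2 difference of FGFR1OP-RET from BCR-RET (x axis) and from BCR-ABL (y axis) for each of the 19938 genes, with the 271 genes that met both conditions in red. Both axes share the FGFR1OP-RET arrays, which by itself tilts the cloud; Oas3 and Pim2 lie near the diagonal, Gzmc and Tnfrsf9 away from it, and Pdcd1 near 0 on the y axis.

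The single comparisons were set beside each other, bearing in mind that they share the FGFR1OP-RET arrays. FGFR1OP-RET against BCR-RET gave 265 genes past the threshold (1.33%) and against BCR-ABL 203 (1.02%). Of the 206 higher genes 75 passed against each BCR group alone, 58 against BCR-RET only, 53 against BCR-ABL only and 20 against neither. Of the 65 lower genes 12 passed against each, 31 against BCR-RET only, 19 against BCR-ABL only and 3 against neither. In all, 87 genes passed both, on one side (0.436% of all genes). Passing against 1 BCR group alone does not show that the BCR groups differ, which the comparison of BCR-RET with BCR-ABL tests.

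The test of BCR-RET against BCR-ABL was not used to choose the genes, although it shares arrays and the estimate of spread. The choice was not free of this difference, since a mean above both or below both groups depends on how far they are apart. The 3 genes which that condition removed all passed this comparison, with adjusted p of 2.86e-06 (Pdcd1), 0.00153 (Il6) and 0.000644 (Muc13). The counts below are of the genes left after it. Of all genes 117 passed it (0.587%), and of the 271 genes 23 did (8.49%). By direction this was 9 of the 206 higher genes (4.37%) and 14 of the 65 lower genes (21.5%). Same-numbered BCR-RET and BCR-ABL arrays deviated together, and in a fit blocked on replicate number 362 of all genes passed (1.82%), 51 of the 271 (18.8%), 27 of the 206 higher (13.1%) and 24 of the 65 lower (36.9%). The block kept all 117 genes. Of the 9, 8 were higher in BCR-RET, among them Ifi27 (BCR-RET minus BCR-ABL 0.40, adjusted p 0.0405) and Tapbp (0.30, adjusted p 0.028). Of the 14 lower genes 9 were higher in BCR-RET than BCR-ABL and 5 were lower. Tnfrsf9 differed by 1.17 between BCR-RET and BCR-ABL (adjusted p 0.00326), Il2ra by 0.80 (adjusted p 0.0109), Gzmc by -0.86 (adjusted p 0.00217) and Ryk by -0.59 (adjusted p 0.0197). Over the higher genes the BCR-RET mean was above the BCR-ABL mean in 49.0%, over the lower genes in 56.9% and over all genes in 60.7%.

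The 3 genes that passed but lay neither above both nor below both BCR groups were Pdcd1 (-0.86), Il6 (-0.54) and Muc13 (-0.49), and each was high in BCR-RET. Pdcd1, the inhibitory receptor PD-1, had 7.39, 7.37 and 7.45 in FGFR1OP-RET, 9.36, 9.40 and 9.14 in BCR-RET and 7.18, 7.17 and 7.30 in BCR-ABL. The Pdcd1 difference from the BCR mean was -0.86 (SE 0.06, adjusted p 0.000614), although FGFR1OP-RET lay above BCR-ABL. At the threshold itself, Plekhf1 (-0.51), Slc39a4 (-0.35) and Foxp4 (0.26) were just inside, each with an adjusted p of 0.0493. Just outside were Il27ra (-0.29, adjusted p 0.0503), Slc27a4 (0.29, adjusted p 0.0508) and Mical1 (0.33, adjusted p 0.0514).

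No gene passed in 15 of the 39 lists, by limma. Among these were DNA replication and mitosis, with 30 measured genes, a median of -0.04 and 3 genes at an unadjusted p under 0.05 (12.3% of all genes), and ribosome biogenesis, with 26, a median of 0.00 and 3. The B lymphoid list had 22 measured genes, a median of -0.02 and 1 gene at an unadjusted p under 0.05. Oxidative phosphorylation stood apart in its median of -0.16, with 1 of 23 genes above 0, against 8690 of all 19938 genes. By limma 9 of the 23 had an unadjusted p under 0.05, all 9 lower, against 1223 lower among all genes. The median of the list was -0.21 against BCR-RET and -0.11 against BCR-ABL. Its per-array median was -0.11, -0.12 and -0.07 in FGFR1OP-RET, -0.01, 0.08 and 0.18 in BCR-RET and -0.06, 0.03 and 0.04 in BCR-ABL. The FGFR1OP-RET arrays lay below all others, narrowly so for one BCR-ABL array. The lowest genes were Ndufa4 (-0.46, adjusted p 0.103) and Ndufa1 (-0.43, adjusted p 0.239), both parts of the respiratory chain.

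**Figure D5:**
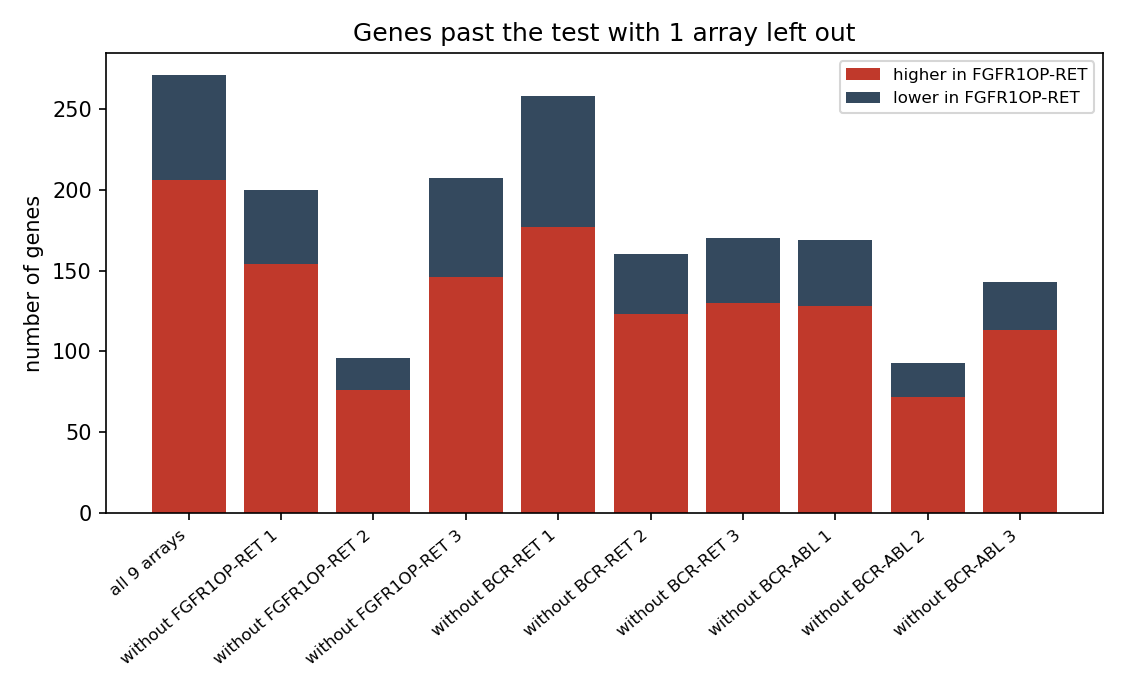
Number of genes that met both conditions (y axis), higher and lower in FGFR1OP-RET, with all 9 arrays and with each array left out. The count was 271 with all arrays and lay between 93 and 258 with 1 array out, lowest without BCR-ABL replicate 2 and next without FGFR1OP-RET replicate 2 (96).

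The number of genes depended on single arrays. Without FGFR1OP-RET replicate 2 it was 96, without BCR-RET replicate 2 it was 160 and without BCR-RET replicate 3 it was 170. Without BCR-ABL replicates 1, 2 and 3 it was 169, 93 and 143. The other 3 omissions gave 200, 207 and 258 genes. Of the 271 genes 75 passed in each of the 9 fits, 62 of them higher and 13 lower, and 33 of the 70 genes named by rule did so. For the other 37 the highest adjusted p with 1 array out lay between 0.0586 and 0.198. Of the 196 genes lost at least once, 157 had their highest adjusted p without FGFR1OP-RET replicate 2. When the 6 BCR arrays were treated as 1 group, 148 of the 271 passed, 130 of the 206 higher and 18 of the 65 lower genes.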

How the data were processed

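Values on a log2 scale for each probe set were deposited by the authors; per the submitters' processing notes and sample labels they are gene-level RMA values from Expression Console. The sources used here give no software version, annotation or build. RMA makes arrays alike in distribution, so a change shared by most genes would not be seen, and no detection calls were used. Of 35557 probe sets, 21789 had 1 gene symbol; for 999 genes with several probe sets the brightest was kept, which left 19938 genes. Groups came from the sample labels. A mean per fusion was fitted to the log2 values of all 9 arrays with limma 3.58.1 in R 4.3.3 (lmFit, contrasts.fit, eBayes), with Benjamini-Hochberg adjustment over all genes and a threshold of 0.05. Tested on simulated data in which 200 of 19938 genes were changed, the fit recovered 85% of changes of 0.5 and 98% of changes of 1, with 6.15% false calls; the simulated noise was independent between genes and arrays.

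The members and the 39 gene lists (867 genes, 806 measured) were chosen with earlier results of these data known. Genes named are the 15 highest and 15 lowest without overlap of arrays and without predicted genes, up to 4 members per list with at least 2, and the fusion partners. Others named were chosen after their values were seen. Alternatives were other spread models, centring, probe set handling, filters, blocks and each array left out. Array number limits precision. Deviations from the group means correlated between same-numbered BCR-RET and BCR-ABL arrays at 0.617, 0.155 and 0.367 across genes, so the blocked counts are given beside that comparison; the block was fitted over all 9 arrays.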

Additional observations from a re-analysis of the deposited data

How the results depend on the processing

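The count of 271 genes stayed within 1.5 times under 8 other settings (array weights, intensity trend, robust trend, median centring, mean of probe sets, all probe sets, a filter on low values and without repeated values), with a range of 235 to 283. It was 148 with the BCR arrays as 1 group and 411 with the replicate number as a random effect (consensus correlation 0.145). The replicate numbers are shared by the labels. Deviations of same-numbered FGFR1OP-RET arrays correlated with BCR-RET at 0.498, -0.152 and 0.41 and with BCR-ABL at 0.382, -0.128 and 0.4. Arrays numbered 1 and 3 thus deviated together with both BCR groups, and those numbered 2 did not. The sources used here do not say what the numbers stand for, so the main fit has no block and the blocked count is given beside it. With the number as a replicate block the count was 964, which held all 271 and was 59.9% higher genes, against 76.0%. Leaving out 1 array gave 93 to 258.

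FGFR1OP-RET against BCR-RET gave 265 genes, 438 with the random effect, 1135 with the replicate block and 86 to 194 with 1 array out. Of its genes 64.2% were higher, against 50.6% with the block and 81.4% after median centring. FGFR1OP-RET against BCR-ABL gave 203, 316, 576 and 70 to 185 in the same order. BCR-RET against BCR-ABL gave 117, 191, 362 and 28 to 114, and 293 with array weights; after median centring 39.3% of its genes were higher, against 63.2%. The cause of these shifts was not tested.

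The Abl1 difference of -0.02 ran from -0.05 to 0.02 with 1 array out, never past the threshold, and turned to 0.00 with BCR-ABL replicate 2 omitted, to 0.01 with BCR-RET replicate 2 omitted and to 0.02 with FGFR1OP-RET replicate 2 omitted. None of the other genes named by the rule changed direction under these settings. Genes named outside the rule were not all so stable. With 1 array out, Ltf ran from -0.08 to 0.46 and Adgre1 from -0.17 to 0.13. With 3 arrays per fusion and dim genes near background, small differences cannot be resolved.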

Other observations

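Several genes outside the lists, chosen after their values were seen, moved as far as the named ones. Hk3, a hexokinase of myeloid cells, had 9.69, 9.70 and 9.66 in FGFR1OP-RET, 8.70, 8.63 and 8.69 in BCR-RET and 8.90, 8.95 and 9.01 in BCR-ABL, a difference of 0.87 (SE 0.04, adjusted p 3.12e-05 by limma). Its arrays differed by less than 0.12 within each fusion. Pram1, an adaptor of myeloid cells, was higher by 1.03 (SE 0.09, adjusted p 0.00169). Slc15a3, a lysosomal peptide transporter, was higher by 1.10 and Thbs1, the matrix protein thrombospondin-1, by 1.05. Alas1, the first enzyme of haem synthesis, was higher by 0.72, Ern1, the stress sensor IRE1, by 0.70 and Ncf1, a subunit of the phagocyte oxidase, by 0.66. Each of these 7 genes passed without each of the 9 arrays.

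Some higher genes belonged to small families, also noticed after values were seen. The stefin A group had 4 of 8 measured genes higher (median difference 0.93), or 4 of 6 (1.06) among those on chromosome 16, the Pilr receptors 3 of 3 (0.71), the Cd200r receptors 3 of 4 (0.53) and the Oas genes 5 of 11 (0.43). On the gene order of GRCm38.p6 there were 9 runs of neighbouring tested genes, holding 22 of the 271. In all 9 the genes were higher, as were 206 of the 271 (76.0%). How many runs any other 271 genes would give was not tested. The runs were Csta3, Csta2, Cstdc6 and Stfa2, then Cd200r1, Cd200r4 and Cd200r2, then Pilra, Pilrb1 and Pilrb2, and the pairs Oas2 and Oas3, Oasl2 and Oasl1, Slfn1 and Slfn4, Lilr4b and Lilrb4a, Plppr3 and Prtn3, and Gmip and Lpar2. Most runs are of close relatives, and whether their probes share signal was not tested.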
